A study of Mus musculus with 5 samples.

Results

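Among the genes of LPS-stimulated bone marrow-derived macrophages (BMMs), Adap2, Cbl, Trip11, Bod1l, Tbrg3, Mgat5, Tulp4 and 2900060B14Rik were all much higher with Sema3G than with PBS. They are 8 of the 24419 rows of the expression table, and all 8 were among the 10088 genes tested, which have a mean of 1 or more CPM, the UMI count scaled to the library total. The 8 genes were chosen by their measured rise with Sema3G in these same libraries. Their levels and fold changes are therefore a description with no test. BMMs from C57BL/6 mice had been grown for 5 days with 50 ng/ml M-CSF and activated with 100 ng/ml LPS, in both groups. They then received PBS (2 samples) or 100 ng/ml recombinant Sema3G (3 samples) for 18 h. The comparison asks which transcripts of an activated macrophage differ when Sema3G is present. Sequencing covered RNA 3′ ends, and unique molecular identifiers (UMIs) were counted. The labels do not say whether samples of a group came from separate mice or cultures, so the spread between them may be partly technical.

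Sema3G is a secreted semaphorin that binds neuropilin and plexin receptors on the cell surface. LPS-activated macrophages depend on tyrosine kinase receptors, such as the M-CSF receptor, and on the traffic of receptors through the Golgi apparatus and endosomes. Several of the 8 genes encode parts of this machinery. Adap2 regulates the small GTPase ARF6 at the plasma membrane, Cbl is a ubiquitin ligase that marks activated tyrosine kinase receptors for degradation, Trip11 is a golgin of the cis-Golgi, and Mgat5 adds a branch to the N-glycans of surface proteins. Bod1l protects stalled replication forks, and Tulp4 is a tubby-like protein with a SOCS box. Tbrg3 and 2900060B14Rik are non-coding.

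2900060B14Rik is a single exon of 616 bases at chr1:118458652-118459267 (GRCm38, minus strand, GENCODE M21), antisense to Clasp1 and outside its exons. The annotated small nuclear RNA Gm22710, of 125 bases, lies inside it at chr1:118459141-118459265 on the same strand, from position 3 to position 127 of the exon. U4atac, a small nuclear RNA of the minor spliceosome, is known from an intron of the human CLASP1 gene. The table has no row named Gm22710, so UMIs of the small RNA and of the longer transcript cannot be told apart. The snRNA sequence and the last 150 bases of the transcript (chr1:118458652-118458801, minus strand) are shown because UMIs counted to this gene could come from either. Both are from the GRCm38 genome. Capitals mark the genomic run of 17 A at positions 600 to 616. The longest run of A in the snRNA is 4 bases.
Gm22710: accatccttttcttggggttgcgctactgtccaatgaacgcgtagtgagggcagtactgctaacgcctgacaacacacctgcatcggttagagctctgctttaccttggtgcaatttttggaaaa
2900060B14Rik, last bases: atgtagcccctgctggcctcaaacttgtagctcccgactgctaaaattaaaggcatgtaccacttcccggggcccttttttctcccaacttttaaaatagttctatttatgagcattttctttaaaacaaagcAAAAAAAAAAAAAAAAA

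The libraries held 1798469 to 2215855 UMIs, of which 65.9 to 77.6% were on listed genes, and 3 UMIs equal 1.35 to 1.67 CPM. Macrophage markers were present (8 of 8 above 0, summed level 9761 to 12570 CPM under PBS, against 8860 to 9518 CPM with Sema3G). Summed neutrophil markers were at 116 to 169 and 103 to 133 CPM (5 of 7 above 0, Elane and Ngp at 0), and stromal markers at 9.10 to 25.8 and 12.2 to 20.7 CPM (5 of 6 above 0). Lymphoid markers reached at most 9.89 CPM (1 of 8 above 0, with Cd3e at 0), dendritic markers 0.556 CPM (2 of 6) and mast cell and basophil markers 0.461 CPM (1 of 5). None of the 16 markers tested passed the limma adjusted p of 0.05, and at an unadjusted p under 0.05 there were 1 higher and 1 lower (over all genes tested, 6.83% were higher and 14.2% lower at that p). The edgeR and DESeq2 tests called none of those they tested. The ribosomal RNA precursor Rn45s took 1.01 and 3.19% of the UMIs under PBS, against 6.31, 7.40 and 7.88% with Sema3G, so its share moved with the groups. Sema3G replicates 2 and 3 were more alike than any other pair of libraries (chi-square per degree of freedom 1.77, against 6.57 to 29.6 for the other 9 pairs).

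**Figure D1:**
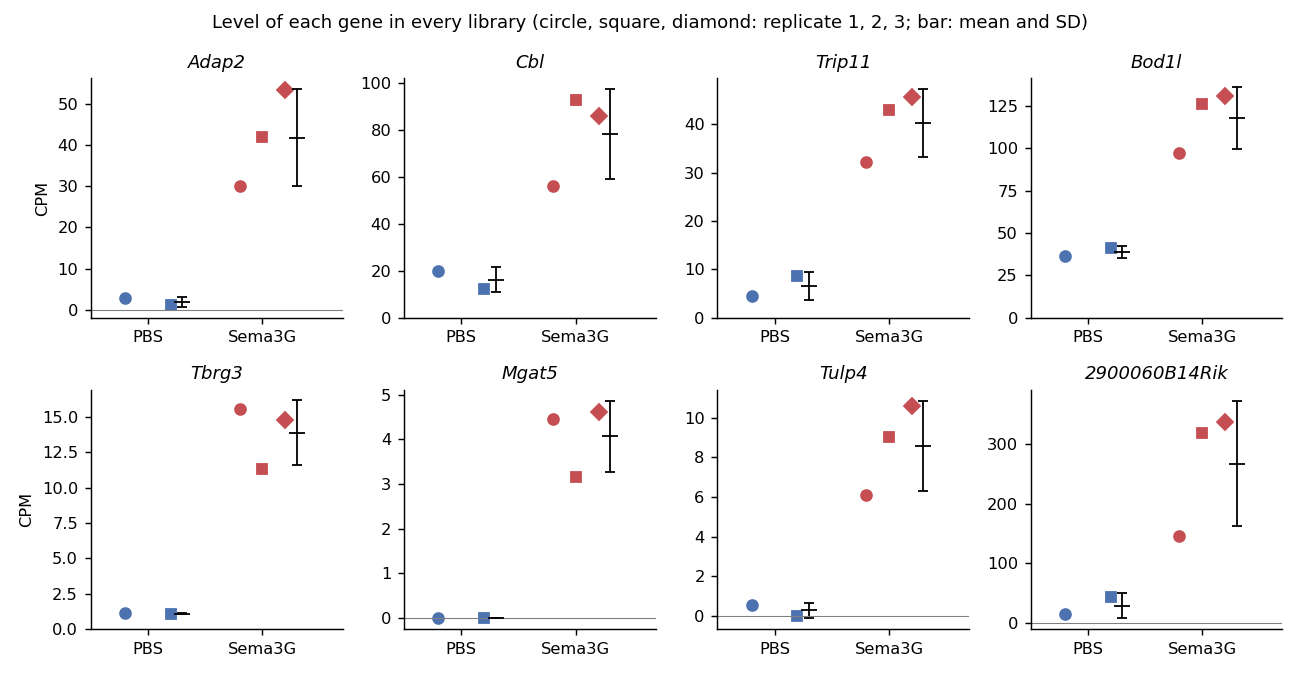
CPM (UMI counts scaled to the library total, linear axis) of each of the 8 genes in the 2 PBS and 3 Sema3G libraries, with the mean and SD of each group at its right. In every panel all Sema3G points lie above both PBS points, and for 6 of the 8 genes Sema3G replicate 1 is the lowest of its group.

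Adap2 encodes a GTPase-activating protein for ARF6 that binds phosphoinositides at the plasma membrane. It had 5 and 2 UMIs under PBS, against 54, 93 and 116 UMIs under Sema3G. Its level was thus near the limit of detection with PBS and well above it in each Sema3G library. The mean was 1.91 ± 1.19 CPM under PBS (SD, n = 2) against 41.8 ± 11.7 CPM under Sema3G (SD, n = 3). The log2 fold change of CPM + 1 was 3.90 (standard error 0.35), rank 2 of the 10088 genes ordered from the largest rise. The ratio of the pooled UMI shares was 22.4, with a 95% exact binomial interval of 10.7 to 56.3 that covers counting error only. Sema3G replicate 1 held 0.630 times the share of replicates 2 and 3 (interval 0.458 to 0.853), so the spread within the Sema3G group was larger than counting error. In these bulk samples, a higher level per cell and a larger share of cells that express a gene cannot be told apart, for Adap2 or for the other genes.

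The Adap2 gene lies at chr11:80154105-80178958 on the plus strand. It shares its span with 3 exons of an antisense gene, Adap2os, which has no row in the table. How strand was used in counting was not stated, so a contribution of Adap2os to the Adap2 counts cannot be told apart. Adap1, the closest relative, had 42.3 and 62.1 CPM under PBS, against 58.4, 44.7 and 41.9 CPM under Sema3G. Its groups overlapped, and its log2 fold change of -0.10 (standard error 0.23, limma adjusted p = 0.832) was smaller than its error and changed sign with the scaling.

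Cbl encodes the ubiquitin ligase c-Cbl, which in macrophages is known for the downregulation of the M-CSF receptor. It had 36 and 23 UMIs under PBS, against 101, 205 and 186 UMIs under Sema3G. Both PBS libraries were below all Sema3G libraries, and Sema3G replicate 1 lay between the PBS libraries and the other Sema3G libraries. The mean was 16.0 ± 5.28 CPM under PBS (SD, n = 2) against 78.1 ± 19.3 CPM under Sema3G (SD, n = 3), a log2 fold change of 2.22 (standard error 0.26) and rank 20. The pooled ratio was 4.97 (95% exact binomial interval 3.79 to 6.63). The ratio of PBS replicate 2 to replicate 1 was 0.623, and its interval of 0.352 to 1.08 includes 1. For Sema3G replicate 1 over replicates 2 and 3 it was 0.630 (0.501 to 0.786).

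Cbl lies at chr9:44142976-44234049 on the minus strand, and its span holds an putative transcript on the same strand that has no row in the table. Its paralog Cblb, also a ubiquitin ligase, had 9 and 16 UMIs under PBS, against 18, 22 and 25 UMIs under Sema3G. The Cblb groups did not overlap, but the log2 fold change of 0.60 (standard error 0.35) did not pass the test (limma adjusted p = 0.330). The other paralog, Cblc, had 0 UMIs in all libraries.

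Trip11 encodes GMAP-210, a golgin that tethers vesicles at the cis-Golgi. It had 8 and 16 UMIs under PBS, against 58, 95 and 99 UMIs under Sema3G. The libraries of the 2 groups were apart, with means of 6.48 ± 2.95 CPM (SD, n = 2) and 40.3 ± 7.07 CPM (SD, n = 3). The log2 fold change was 2.51 (standard error 0.30), rank 11. The pooled ratio was 6.26 (95% exact binomial interval 4.11 to 9.96). The PBS libraries differed by a ratio of 1.95, within counting error (0.787 to 5.26), and Sema3G replicate 1 held 0.729 times the share of the other Sema3G libraries (0.534 to 0.982). Trip11 lies at chr12:101834043-101913267 on the minus strand.

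Mgat5 encodes the Golgi enzyme GnT-V, which makes the β1,6-branched N-glycans that galectins bind. It had 0 UMIs in PBS replicates 1 and 2, and 8, 7 and 10 UMIs in the Sema3G libraries. The Sema3G level was 4.07 ± 0.795 CPM (SD, n = 3). Set against a floor of 3 counts for both PBS libraries together, it was at least 4.97-fold higher. The 95% exact binomial interval of the pooled ratio, which also takes in the counting error of the 25 Sema3G UMIs, has a lower limit of 3.75. The fitted log2 fold change of 2.33 (standard error 0.51, rank 14) depends on the pseudocount and is no bound: it was 5.36 with a pseudocount of 0.1 and 0.86 with a pseudocount of 5. The Sema3G libraries did not differ beyond counting error (replicate 1 over replicates 2 and 3, 1.15, interval 0.429 to 2.81). Mgat5 spans chr1:127205015-127488336 on the plus strand, and its 3′ end overlaps 2 exons of Tmem163 on the opposite strand. On its own strand it also holds the small RNA genes Gm23370 and Gm23734 and 3 putative transcripts, which have no rows in the table, so UMIs from them cannot be told apart from those of Mgat5. Its paralog Mgat5b had 0 UMIs in all libraries.

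Bod1l encodes a nuclear protein that binds the SET1A methyltransferase and protects stalled replication forks. It had 66 and 77 UMIs under PBS, against 175, 279 and 284 UMIs under Sema3G. PBS was below Sema3G in every library, and the PBS libraries did not differ beyond counting error (ratio 1.14, interval 0.808 to 1.60). Sema3G replicate 1 held 0.758 times the share of replicates 2 and 3 (0.636 to 0.90), a difference beyond counting error. The mean was 38.7 ± 3.51 CPM under PBS (SD, n = 2) against 118 ± 18.1 CPM under Sema3G (SD, n = 3). The log2 fold change of 1.57 (standard error 0.20) had rank 74, and the pooled ratio was 3.08 (95% exact binomial interval 2.57 to 3.71). Bod1l thus had the smallest fold change of the 8 genes, and 42 genes outside the list that were called higher had larger ones. It lies at chr5:41787538-41844315 on the minus strand. Its smaller relative Bod1, which acts at kinetochores, had 12.1 and 4.82 CPM under PBS, against 7.78, 5.42 and 9.68 CPM under Sema3G. These overlapped, and the log2 fold change of -0.05 (standard error 0.41, limma adjusted p = 0.961) changed sign with the scaling.

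Tulp4 encodes a tubby-like protein with WD repeats and a SOCS box, a motif that links a protein to cullin-based ubiquitin ligases. It had 1 and 0 UMIs under PBS, against 11, 20 and 23 UMIs under Sema3G. The mean was 0.275 ± 0.388 CPM under PBS (SD, n = 2) against 8.58 ± 2.28 CPM under Sema3G (SD, n = 3). With 1 UMI in the whole PBS group, the pooled ratio of 32.2 had a 95% exact binomial interval of 5.54 to 1295. The fitted log2 fold change of 2.92 (standard error 0.47, rank 6) was 5.05 with a pseudocount of 0.1 and 1.35 with a pseudocount of 5. Tulp4 lies at chr17:6106437-6251128 on the plus strand. Of its tubby relatives, Tub, Tulp1 and Tulp2 had 0 UMIs in all libraries. Tulp3 had 6 and 4 UMIs under PBS, against 8, 8 and 3 UMIs under Sema3G, overlapping groups with a log2 fold change of 0.09 (standard error 0.50, limma adjusted p = 0.937).

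Tbrg3 is a long non-coding RNA named for regulation by TGF-β. It had 2 and 2 UMIs under PBS, against 28, 25 and 32 UMIs under Sema3G. Its PBS level of 1.08 ± 0.0199 CPM (SD, n = 2) was at or under the floor of 3 counts in each library, and its Sema3G level was 13.9 ± 2.28 CPM (SD, n = 3). The log2 fold change was 2.82 (standard error 0.39), rank 8, and the pooled ratio was 12.7 (95% exact binomial interval 4.77 to 47.6). Unlike most of the 8 genes, Tbrg3 was highest in Sema3G replicate 1, though not beyond counting error (1.20, interval 0.734 to 1.91).

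By the RefSeq annotation, Tbrg3 lies at chr15:82890483-82898461 on the minus strand, within an intron of Tcf20 (chr15:82808436-82987872), which is on the same strand. GENCODE M21 has no gene of that name. Intronic RNA of Tcf20 and RNA of Tbrg3 cannot be told apart by strand, so the Tbrg3 counts are uncertain. Tcf20, a transcriptional co-regulator, had a log2 fold change of 1.23 (standard error 0.39) and did not pass the test (limma adjusted p = 0.105). With CPM rescaled to the listed genes, Rn45s aside, Tcf20 passed (limma adjusted p = 0.0374).

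2900060B14Rik had 25 and 81 UMIs under PBS, against 263, 707 and 733 UMIs under Sema3G. The groups were apart, but the libraries of each group differed from one another. PBS replicate 2 held 3.16 times the share of replicate 1 (95% exact binomial interval 1.99 to 5.16), and Sema3G replicate 1 held 0.445 times that of replicates 2 and 3 (0.389 to 0.508). The Rn45s share differed within the groups in the same directions, with ratios of 3.17 and 0.827. The mean was 28.5 ± 20.9 CPM under PBS (SD, n = 2) against 268 ± 106 CPM under Sema3G (SD, n = 3). The log2 fold change was 3.30 (standard error 0.36), rank 4, and the pooled ratio was 9.58 (7.87 to 11.8). Clasp1, which lies on the opposite strand and encodes a microtubule-binding protein, had a log2 fold change of 0.35 (standard error 0.36, limma adjusted p = 0.589).

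**Figure D2:**
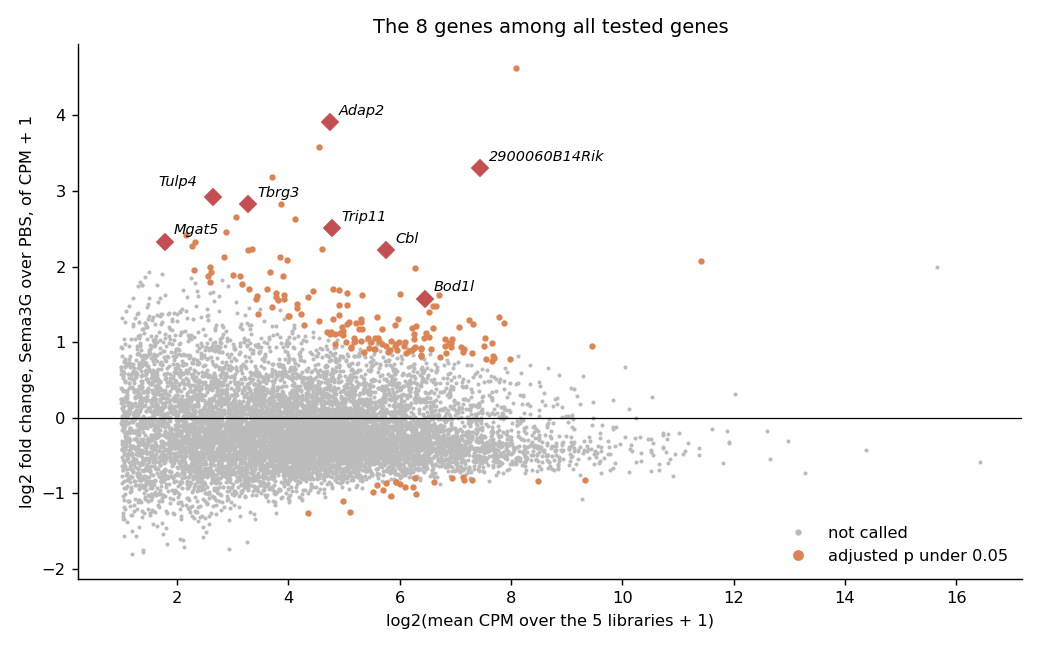
Log2 fold change (Sema3G over PBS, of CPM + 1) against log2 of the mean CPM + 1 for the genes tested, with genes past the limma adjusted p of 0.05 in orange and the 8 genes as red diamonds. The diamonds run from 1.57 for Bod1l to 3.90 for Adap2 and lie along the upper edge of the cloud.

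All 8 genes passed the limma adjusted p of 0.05 and had groups that did not overlap, which their choice had fixed. Over all genes tested, 160 (1.59%) were called higher with Sema3G, 22 (0.218%) were called lower, and 1198 (11.9%) were higher in every Sema3G library than in both PBS libraries. Nothing is read from the contrast of these shares with the 8 genes. The median log2 fold change of all genes tested was -0.22, and TMM scaling moved it to -0.04. Within the PBS group, 3 of the 8 genes were higher and 4 were lower in replicate 2 than in replicate 1, and Mgat5 was at 0 in both. Within the Sema3G group, Adap2, Cbl, Trip11, Bod1l, Tulp4 and 2900060B14Rik were lowest in replicate 1. The same held for 27.2% of the genes tested and 79.4% of those called higher. An exact two-sided rank test of 2 against 3 samples could not give a p below 0.2 for a single gene.

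The genes known to work with each of the 8 were described from 8 partner lists, of which 182 genes could be tested. Of these, 5 rose (2.75%, against 1.59% of all genes tested) and 0 fell by the limma adjusted p. Without Sema3G replicate 1, 6 rose and 7 fell (270 and 440 over all genes), and with the replicate number as a block, 7 rose and 3 fell (298 and 275 over all genes). None passed without PBS replicate 1, Sema3G replicate 2 or Sema3G replicate 3, with Sema3G replicates 2 and 3 averaged, or with the Rn45s share as a covariate. Of the 5, 4 were golgins and 1, Rif1, was from the Bod1l list. The other 6 lists had no call in either direction.

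**Figure D3:**
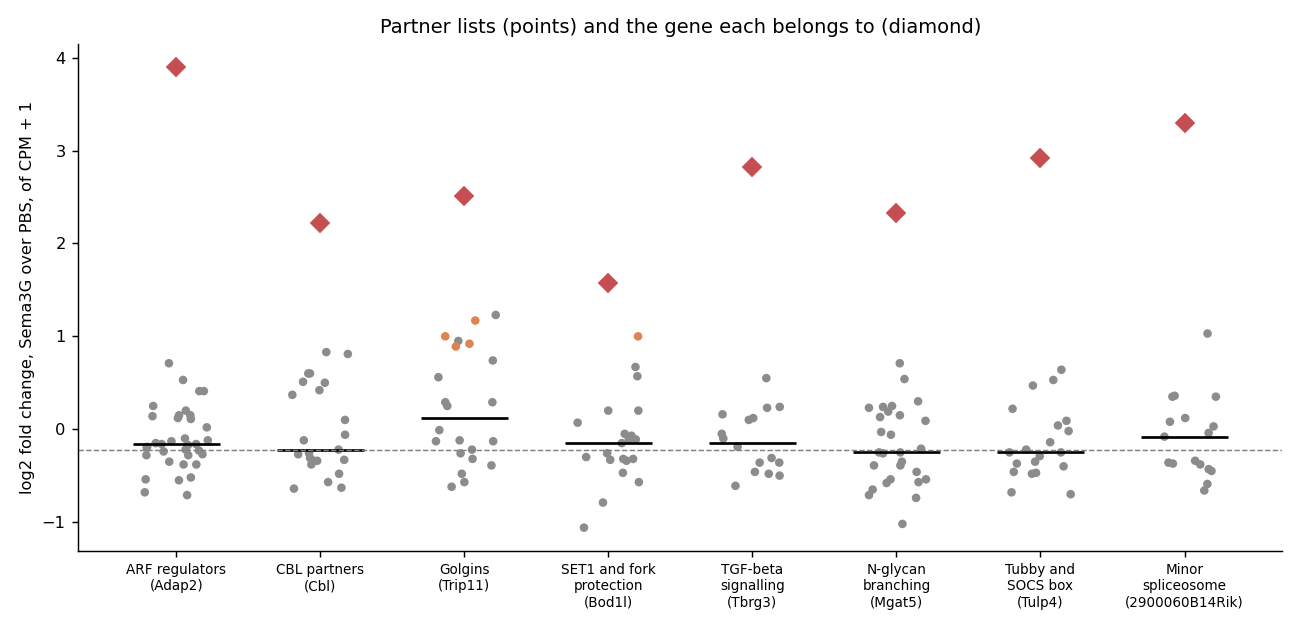
Log2 fold change (Sema3G over PBS, of CPM + 1) of each tested gene in the 8 partner lists (grey, or orange past the limma adjusted p of 0.05), with the list median (bar), the median of all genes tested (dashed, -0.22) and the gene the list belongs to (diamond). Each diamond was chosen for its rise, so its place above the points of its list is no result. Of the 5 orange points, 4 are golgins.

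Golgins are long coiled-coil proteins that tether vesicles at the Golgi apparatus, as Trip11 does. Of 22 genes tested in the golgin list, 4 rose and 0 fell, 8 were higher and 4 lower in every Sema3G library than in both PBS libraries (11.9% and 26.5% of all genes tested), and the list median was 0.12. The edgeR and DESeq2 tests on UMI counts called the same genes, Gcc2, Golga4, Golgb1 and Tmf1. At an unadjusted limma p under 0.05, 6 were higher and 2 lower, against 6.83% and 14.2% of all genes tested. Gcc2, a trans-Golgi golgin, had 19.8 and 23.6 CPM under PBS, against 41.1, 48.3 and 61.8 CPM under Sema3G (log2 fold change 1.17, standard error 0.24, limma adjusted p = 0.0178). Golga4, also of the trans-Golgi, had 35.7 and 41.2 CPM under PBS, against 63.9, 73.6 and 100 CPM under Sema3G (log2 fold change 1.0, limma adjusted p = 0.0265). For both genes all Sema3G libraries were above both PBS libraries.

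Golgb1, which encodes giantin, had 44.5 and 63.2 CPM under PBS, against 87.3, 108 and 111 CPM under Sema3G (log2 fold change 0.92, limma adjusted p = 0.0312). Tmf1, a golgin that binds RAB6, had 38.5 and 34.3 CPM under PBS, against 59.5, 68.6 and 77.4 CPM under Sema3G (log2 fold change 0.89, limma adjusted p = 0.0384). The groups were apart for both, and replicate 1 was the lowest Sema3G library for all 4 golgins. Golim4 had the largest log2 fold change of the list, 1.23, with a limma adjusted p of 0.123, and Gcc1 the lowest, -0.62, with a limma adjusted p of 0.286. The 4 calls were lost without PBS replicate 1, without Sema3G replicate 2, without Sema3G replicate 3, or with Sema3G replicates 2 and 3 averaged. Tmf1 alone also lost its call without PBS replicate 2 (limma adjusted p = 0.0939), where Golim4 gained one (limma adjusted p = 0.0240), and without a filter on low values (limma adjusted p = 0.0517). They were also lost with a covariate for the Rn45s share, where Gcc2 had a log2 fold change of 0.19, Golga4 0.04, Golgb1 -0.24 and Tmf1 0.72.

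In the list of SET1 complex and fork protection genes, the context of Bod1l, 1 of 21 genes rose and 0 fell, with a median of -0.15. Rif1, which guards replication timing and stalled forks, had 17.0 and 21.9 CPM under PBS, against 31.7, 41.5 and 47.9 CPM under Sema3G (log2 fold change 1.0, standard error 0.25, limma adjusted p = 0.0479). All Sema3G libraries were above both PBS libraries, and edgeR and DESeq2 also called Rif1. They called no other gene of the list among those they tested, which were 17 of the 21 for edgeR. The Rif1 call was lost wherever the 4 golgin calls were, with a log2 fold change of -0.18 when the Rn45s share was a covariate. It was also lost with a pseudocount of 0.1 or 5 (limma adjusted p = 0.0604 and 0.0517) and without a filter on low values (0.0712). At an unadjusted limma p under 0.05, 1 gene was higher and 3 were lower, against 6.83% and 14.2% of all genes tested. Wdr82, a subunit of the SET1 complexes, had 20.3 and 24.1 CPM under PBS, against 9.45, 9.48 and 11.5 CPM under Sema3G, and its log2 fold change of -1.06 did not pass the test (limma adjusted p = 0.0758). With the replicate number as a block, Wdr82 had -1.14 and passed (limma adjusted p = 0.0197).

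The ARF list, with the GTPases, their activating proteins and their exchange factors, had 35 genes tested by limma and 33 by edgeR. There were 0 calls in limma, edgeR or DESeq2 among the genes each tested, and the limma median was -0.16. At an unadjusted limma p under 0.05, 2 were higher and 3 lower, against the same 6.83% and 14.2% of all genes. Arf6, the substrate of Adap2, had 208 and 165 CPM under PBS, against 165, 149 and 148 CPM under Sema3G, and its log2 fold change of -0.27 did not pass the test (limma adjusted p = 0.408) and became 0.02 with CPM rescaled to the listed genes, Rn45s aside. The exchange factor Cyth3 had the largest log2 fold change, 0.71 (limma adjusted p = 0.207), and Agfg2 the lowest, -0.71 (limma adjusted p = 0.133).

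The list of Cbl adaptors and kinase clients had 23 genes tested, 0 calls in limma and DESeq2, and a median of -0.22, while edgeR called Cd2ap and Pik3r1 higher. Over all genes it tested, edgeR called 330 higher and 4 lower. At an unadjusted limma p under 0.05, 3 of the list were higher and 1 was lower, against 6.83% and 14.2% of all genes tested. Pik3r1, the regulatory subunit of PI3K, had 15.9 and 20.3 CPM under PBS, against 38.9, 26.6 and 33.7 CPM under Sema3G (log2 fold change 0.83, limma adjusted p = 0.102). Its groups were apart. Limma called Pik3r1 with TMM scaling (adjusted p = 0.0315) and with the replicate number as a block (adjusted p = 0.0408). It also did so with CPM rescaled to the listed genes, Rn45s aside (adjusted p = 0.0140). Csf1r, the M-CSF receptor, had 4976 and 3909 CPM under PBS, against 3478, 3563 and 3451 CPM under Sema3G, lower in every Sema3G library, as were 26.5% of all genes tested. The log2 fold change of -0.33 (standard error 0.28, or -0.13 with TMM scaling and -0.04 with CPM rescaled to the listed genes, Rn45s aside) was not past the threshold (limma adjusted p = 0.483).

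The N-glycan branching list had 28 genes tested by limma and 23 by edgeR. In limma, edgeR and DESeq2 there were 0 calls among the genes each tested. The limma median was -0.25, with 0 genes higher and 6 lower at an unadjusted limma p under 0.05, against 6.83% and 14.2% of all genes tested. Uap1, which makes the sugar donor used by Mgat5, had 15.4 and 13.4 CPM under PBS, against 6.12, 6.32 and 7.38 CPM under Sema3G, and its log2 fold change of -1.02 was not past the threshold (limma adjusted p = 0.117). Pgm3, of the same supply route, had the largest value, 0.71 (limma adjusted p = 0.470). The tubby and SOCS box list had 20 genes tested by limma and 15 by edgeR. There were 0 calls in limma, edgeR or DESeq2 among the genes each tested. The limma median was -0.25, with 2 higher and 3 lower at an unadjusted limma p under 0.05. Its extremes were Cul5, a cullin scaffold, at 0.64 (limma adjusted p = 0.152) and Spsb2 at -0.70 (limma adjusted p = 0.133). Cul5 passed with CPM rescaled to the listed genes, Rn45s aside (limma adjusted p = 0.0286).

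The TGF-β list had 16 genes tested by limma and 15 by edgeR, with 0 calls in limma, edgeR or DESeq2 among the genes each tested. The limma median was -0.14, with 0 higher and 1 lower at an unadjusted limma p under 0.05, against 6.83% and 14.2% of all genes tested. Its extremes were Smurf2, a ubiquitin ligase of the pathway, at 0.55 (limma adjusted p = 0.278) and the ligand Tgfb1 at -0.61 (limma adjusted p = 0.331). The U4/U6 and minor spliceosome list had 17 genes tested, 0 calls in limma and DESeq2 and a median of -0.08, with 1 higher and 1 lower at an unadjusted limma p under 0.05. Rnpc3, a protein of the minor spliceosome, had 10.4 and 6.96 CPM under PBS, against 15.0, 18.5 and 22.6 CPM under Sema3G (log2 fold change 1.03, limma adjusted p = 0.0963), and edgeR called it higher. Limma called Rnpc3 with TMM scaling (adjusted p = 0.0429) and with CPM rescaled to the listed genes, Rn45s aside (adjusted p = 0.0223). Prpf3 had the lowest value, -0.66 (limma adjusted p = 0.237).

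Most of the 8 genes have very long transcripts. Cbl (11372 nt), Bod1l (10540 nt), Trip11 (9873 nt), Tulp4 (9687 nt) and Mgat5 (8436 nt) are in the longest decile (6612 to 123179 nt) of the 9714 tested genes with a GENCODE M21 transcript, by each gene's longest one. Adap2 is shorter (1785 nt, the third decile), and 2900060B14Rik (616 nt) is in the shortest (70 to 1266 nt). Tbrg3 has no GENCODE length. By coding sequence, Bod1l (3032 codons), Trip11 (1976) and Tulp4 (1547) are longer than Cbl (913), Mgat5 (740) and Adap2 (381).

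Across all genes, longer transcripts had higher fold changes. The median log2 fold change was -0.41 in the shortest decile, with 5 of 972 genes called higher (0.514%), and 0.15 in the longest, with 68 of 972 called higher (7.0%). Spearman's rho across the 9714 genes, which are not independent replicates and share the same libraries, was 0.31. Length also went with differences within the groups. The median of PBS replicate 2 over replicate 1 was -0.18 in the shortest decile and -0.03 in the longest, and that of Sema3G replicate 1 over replicates 2 and 3 was 0.34 and -0.09. With the Rn45s share in the model the medians between the groups were 0.28 for the shortest decile and 0.10 for the longest, with 20 and 4 genes called higher.

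**Figure D4:**
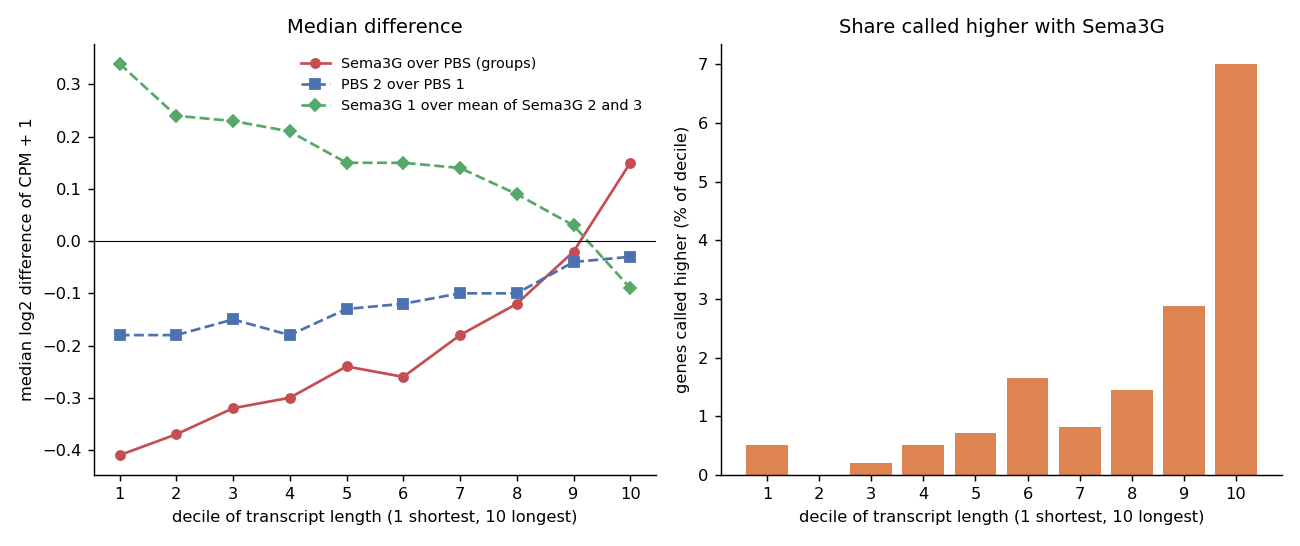
Left, median log2 difference of CPM + 1 by decile of transcript length (1 shortest, 10 longest) for Sema3G over PBS and for differences between libraries of one group. Right, the share of each decile called higher with Sema3G, which is 0.514% in the shortest decile and 7.0% in the longest.

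Relative to the median of its own length decile, the log2 fold change was 4.22 for Adap2, 3.71 for 2900060B14Rik, 2.76 for Tulp4, 2.35 for Trip11, 2.18 for Mgat5, 2.06 for Cbl and 1.42 for Bod1l. These genes were chosen for large rises, so large remainders follow from the choice and are no test of length. The golgin calls lay in long transcripts as well. Of the 8 golgin-list genes with a transcript of 5081 nt or more (deciles 9 and 10), 4 rose (50.0%) and the median was 0.94. The other 14 had 0 limma calls and a median of -0.13. In the same length class of all genes, 96 of 1943 rose (4.94%) and the median was 0.05. What part length or the Rn45s share has in these differences was not tested.

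Genes outside the 8 whose pattern over the 5 libraries was closest to each of them were sought by the smallest root mean square difference of log2(CPM + 1), each gene centred on its own mean. For Bod1l they were Akap9 (0.07), which anchors protein kinase A at the Golgi and centrosome, and Stap1 (0.08), an adaptor of tyrosine kinase signalling. Akap9 had 43.4 and 50.3 CPM under PBS, against 106, 138 and 158 CPM under Sema3G. For Cbl they were Nlrp1b (0.07), an inflammasome sensor, and Pibf1 (0.26). Nlrp1b had 5 and 3 UMIs under PBS, against 19, 35 and 33 UMIs under Sema3G, so its closeness to Cbl rests on few counts.

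Trip11 was nearest to Pik3ap1 (0.25), the adaptor BCAP, and to Eif4ebp2 (0.26), a repressor of translation initiation. Mgat5 was nearest to Pik3ap1 (0.23) and Btbd7 (0.24). Tbrg3 was nearest to the deubiquitinase Usp9x (0.27) and to Pik3ap1 (0.38), and Tulp4 to Usp9x (0.24) and Nlrp1b (0.35). 2900060B14Rik was nearest to Snora81 (0.27), a small nucleolar RNA with 1 and 9 UMIs under PBS, against 47, 85 and 91 under Sema3G, and to Eif4ebp2 (0.35). The nearest to Adap2 were Usp9x (0.68) and the endosomal receptor Tlr8 (0.71), which are farther than those of the other 7 genes. Distances to genes with few PBS counts, such as Mgat5, Tulp4, Tbrg3, Btbd7, Tlr8 and Snora81, depend on the pseudocount. Among the 8 themselves, the distance ran from 0.24 between Tbrg3 and Mgat5 to 1.19 between Adap2 and Bod1l. Adap2 was closer to Tulp4 (0.49) than to any of the 7882 genes searched outside the 8, which had a mean of at least 5 CPM.

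The nearest tested gene on each side of each of the 8 did not pass the test. Limma called none of these 16 neighbours. edgeR tested 13 of them, and neither edgeR nor DESeq2 called any of those it tested. Of the 16, 1 was higher and 2 were lower at an unadjusted limma p under 0.05, against 6.83% and 14.2% of all genes tested. The log2 fold changes of the neighbours had a median of -0.02, against -0.22 over all genes tested, with 7 above and 9 below 0. The largest was that of Rnf26, a ubiquitin ligase gene 29459 bp from Cbl, which had 0 and 3 UMIs under PBS, against 4, 6 and 8 UMIs under Sema3G (1.25, limma adjusted p = 0.211). The lowest was that of Tmem181a, 5732 bp from Tulp4, at -0.72 (limma adjusted p = 0.333).

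Promoter windows from 250 bases before to 50 after the start (RefSeq, GRCm38.p6) were found for all 8 genes, with 2 starts for Tulp4. Of these 9 windows, 6 held GGGCGG (present in 35.7% of 32851 windows of the same length), 4 held CCAAT (37.4%), 4 held GAGGAA (28.3%), 1 held CACGTG (7.15%) and 1 held TATAAA (13.6%). None held TGACGTCA (1.79%), TGANTCA (7.81%) or an NF-kB site (8.46%). Letters were searched on both strands, and a match is a description of the letters only. GC content ran from 43.7 to 81.0%, with a median of 52.7% over all windows.

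The windows of Adap2 and Cbl are shown as 2 of those with GGGCGG, the window of Tulp4 for its CACGTG, and the window of Tbrg3 because it lies within an intron of Tcf20. They lie at chr11:80153912-80154211 (plus strand), chr9:44233997-44234296 (minus), chr17:6106580-6106879 (plus) and chr15:82898412-82898711 (minus). Capitals mark matches to the letters above on either strand. In the Tbrg3 window a TATAAA on each strand overlaps in 1 place.
Adap2: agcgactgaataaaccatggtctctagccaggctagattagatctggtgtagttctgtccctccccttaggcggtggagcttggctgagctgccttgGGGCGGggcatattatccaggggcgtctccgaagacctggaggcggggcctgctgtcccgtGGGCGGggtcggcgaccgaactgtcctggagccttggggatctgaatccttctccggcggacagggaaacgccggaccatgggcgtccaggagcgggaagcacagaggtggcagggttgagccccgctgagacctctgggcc
Cbl: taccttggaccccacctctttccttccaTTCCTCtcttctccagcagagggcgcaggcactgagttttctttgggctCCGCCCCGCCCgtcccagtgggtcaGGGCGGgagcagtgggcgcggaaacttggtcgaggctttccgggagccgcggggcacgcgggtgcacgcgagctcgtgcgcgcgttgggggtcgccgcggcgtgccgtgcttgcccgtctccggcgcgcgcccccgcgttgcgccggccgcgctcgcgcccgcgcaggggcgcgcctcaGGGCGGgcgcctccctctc
Tulp4: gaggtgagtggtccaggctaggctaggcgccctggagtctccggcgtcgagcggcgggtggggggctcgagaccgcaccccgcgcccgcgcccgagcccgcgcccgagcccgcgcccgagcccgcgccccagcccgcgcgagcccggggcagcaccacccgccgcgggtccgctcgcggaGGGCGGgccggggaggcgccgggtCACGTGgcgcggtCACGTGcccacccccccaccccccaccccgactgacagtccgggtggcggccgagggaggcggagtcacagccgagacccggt
Tbrg3: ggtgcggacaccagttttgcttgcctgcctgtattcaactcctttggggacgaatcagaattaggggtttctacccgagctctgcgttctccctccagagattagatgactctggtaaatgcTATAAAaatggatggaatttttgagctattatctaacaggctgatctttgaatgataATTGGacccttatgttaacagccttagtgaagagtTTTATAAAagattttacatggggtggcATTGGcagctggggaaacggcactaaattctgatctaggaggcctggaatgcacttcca

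The fold changes of the 8 genes were compared over 16 other ways of treating the data, or 14 for Mgat5, whose counts were too low for edgeR and for a filter at a mean of 5 CPM. Over the 5 fits that each lacked 1 library, the log2 fold change ran from 3.48 to 4.33 for Adap2, 1.90 to 2.54 for Cbl, 2.09 to 2.92 for Trip11 and 1.48 to 1.71 for Bod1l. It ran from 2.74 to 2.95 for Tbrg3, 2.25 to 2.47 for Mgat5, 2.60 to 3.23 for Tulp4 and 2.51 to 4.10 for 2900060B14Rik. With the Rn45s share as a covariate it was 4.30 for Adap2, 2.42 for Cbl, 3.04 for Tbrg3, 3.07 for Tulp4 and 2.40 for Mgat5, but 0.80 for Bod1l, 0.68 for Trip11 and -0.56 for 2900060B14Rik. Only 2 residual degrees of freedom are left in that model. Because the 8 genes were chosen on this contrast, a limma threshold kept in these refits is no support for them. Mgat5 fell short of that threshold without Sema3G replicate 2 or without Sema3G replicate 3. Mgat5 and Tulp4 fell short with Sema3G replicates 2 and 3 averaged into 1 sample. With the covariate, all but Adap2 and Cbl fell short. Most of the spread of the covariate (89.5% of its variance) was between PBS and Sema3G, so the 2 can hardly be told apart.

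**Figure D5:**
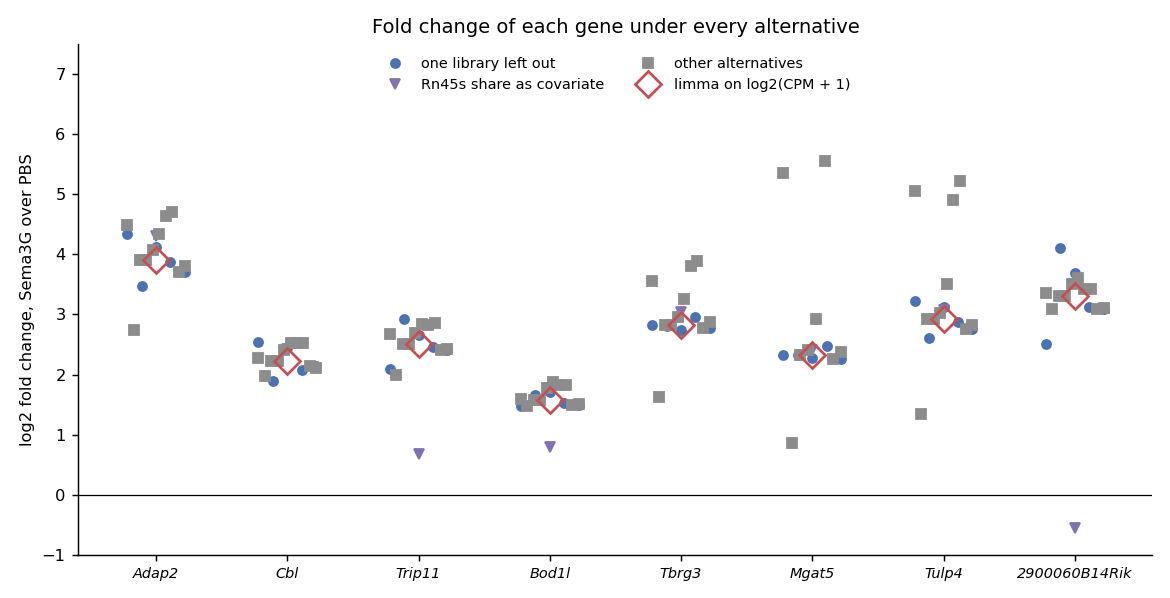
Log2 fold change (Sema3G over PBS) of each of the 8 genes as reported (open diamond), with one library left out (circles), with the Rn45s share as a covariate (triangles) and under the other alternatives (squares). Only 2900060B14Rik falls below 0, at -0.56 with the Rn45s covariate, and Mgat5 runs from 0.86 to 5.56.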

How the data were processed

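RNA of 5 BMM samples (2 PBS, 3 Sema3G) was made into QuantSeq 3′ end libraries with UMIs. The authors mapped reads to mm10, counted UMIs with Strand NGS and normalized with edgeR (version 3.12 in the submitters' processing notes). For the strand setting of the counting and for filters, the sources used here give nothing. CPM values were deposited, beside a rank, p-values and q-values by the authors for the same contrast, which were not used. All CPM values were whole multiples of 1 step per library within 0.01 count, which gave the UMI counts. 27 symbols had become dates and are not named.

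In R 4.3.3, limma 3.58.1 was fitted to log2(CPM + 1), allowing for a trend of the variance with the mean, over the 10088 genes with a mean CPM of 1 or more, and p values were adjusted by Benjamini-Hochberg. The pseudocount shrinks fold changes of low genes. edgeR (4.0.16, quasi-likelihood) and DESeq2 (1.42.0) on the recovered counts were alternatives, beside other pseudocounts, filters and scalings, a Rn45s covariate, a replicate block, Sema3G replicates 2 and 3 averaged, and each library left out. The limma, edgeR and DESeq2 fits were tested on simulated data. Intervals are exact binomial at 95% and cover counting error only. Floors are 3 counts.

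The 8 genes, the partner and marker lists and the naming rule were chosen with earlier results of these data known. Named are the 8 genes, their paralogs, partner genes past the adjusted p, the largest rise and fall of each list (1 of them is not reported here), the extremes among the nearest tested neighbours, some of the overlapping genes, Rn45s and the 2 most similar profiles with a mean of at least 5 CPM. Arf6, Csf1r, Cd2ap and the marker genes at 0 were named outside this rule or after their values were seen. Gene models were GENCODE M21 (GRCm38), and promoter windows were from RefSeq.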

Additional observations from a re-analysis of the deposited data

How the results depend on the processing

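The 182 calls over all genes became 108 without a filter on low values, 325 with TMM scaling, 498 with CPM rescaled to the listed genes, Rn45s aside, 334 in edgeR, 573 with the replicate block and 19 with Sema3G replicates 2 and 3 averaged, and ran from 27 to 710 with a library left out (27 without Sema3G replicate 2, 32 without Sema3G replicate 3, 99 without PBS replicate 1, 710 without Sema3G replicate 1). The 5 partner-list calls became 3, 8, 12, 8, 10 (7 higher and 3 lower) and 0 under the same alternatives and 0 with the Rn45s covariate, and ran from 0 (without PBS replicate 1, Sema3G replicate 2 or Sema3G replicate 3) to 13 (without Sema3G replicate 1, 6 higher and 7 lower). The 4 golgin calls became 0 with the Rn45s covariate or with those replicates averaged, and ran from 0 to 4 with a library left out. The cause was not tested.

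The higher and lower calls were 160 and 22 as reported, 322 and 3 with TMM scaling, 496 and 2 with CPM rescaled to the listed genes, Rn45s aside, 298 and 275 with the block, and 270 and 440 without Sema3G replicate 1. The labels give PBS and Sema3G replicates the same numbers, with nothing that ties them to a shared culture. With 2 pairs (correlations of deviations 0.173 and 0.111) the samples share only a number, and the block leaves Sema3G replicate 3 without a partner.

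For 30 named genes besides the 8, 467 comparisons with 16 alternatives gave the same direction and side of the threshold in 395, a gained call in 18, a lost call with the sign kept in 28 and a turned sign in 26, among which Golgb1 and Rif1 lost their calls too. With the Rn45s covariate the sign turned for 2900060B14Rik, at -0.56, and for 11 of the other genes: Golgb1 -0.24, Rif1 -0.18, Golim4 -0.43, Gcc1 0.58, Pgm3 -1.25, Prpf3 0.71, Cblb -0.61, Bod1 1.59, Arf6 0.42, Csf1r 0.19 and Rnf26 -1.42. Of genes near 0, Adap1 was 0.10 with TMM scaling, 0.19 with CPM rescaled to the listed genes, Rn45s aside, 0.07 in edgeR, 0.08 in DESeq2 and -0.37 to 0.17 with a library left out (highest without PBS replicate 2). Bod1 was 0.13, 0.22, 0.08 and 0.10 in the first 4 of these, and -0.63 to 0.54 with a library left out, above 0 without PBS replicate 1 or Sema3G replicate 2 (0.15). Tulp3 ran from -0.15 to 0.45 with a library left out (-0.14 without PBS replicate 2, -0.15 without Sema3G replicate 1, -0.03 without Sema3G replicate 2), and Arf6 was 0.02 with CPM rescaled to the listed genes, Rn45s aside. At this depth, levels under 1.35 to 1.67 CPM, as Mgat5, Tulp4 and Tbrg3 had with PBS, are not resolved.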
